A study of Mus musculus with 3 samples.

Results

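The genes described here are 10 genes of the proximal part of the mouse *t* complex, on Chromosome (Chr) 17: *Tmem181a*, *Tmem181b-ps*, *Tmem181c-ps*, *Rsph3a*, *Rsph3b*, *Rnaset2a*, *Rnaset2b*, *Rps6ka2*, *Synj2* and *Mpc1*. They are 10 of the 23421 genes of the expression table and 10 of the 42 that lie between 3.5 and 8.3 Mb (mm10, the GRCm38 build). They were picked for large differences between the wild-type and the tw18/tw18 library, so those differences are given below as a description and support nothing. The smallest log2 ratio among them was 1.07 (*Rnaset2a*), and the nearest genes of the same interval below a 2-fold difference were *Gtf2h5* at -0.98 and *Tulp4* at 0.83. Of the 10 genes, 7 are copies in 3 families, whereas *Rps6ka2*, *Synj2* and *Mpc1* have no copy among them, so the name of duplicated genes covers 7 of the 10.

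The *t* haplotype is a variant form of proximal Chr 17 that is held together by inversions and is passed on by carrier males to most of their offspring. The region holds several blocks of duplicated genes, and genes of the sperm tail and of small GTPase signalling in it take part in this transmission ratio distortion. The responder gene of this system arose by fusion of a sperm motility kinase gene with a piece of *Rps6ka2*, the gene for the ribosomal S6 kinase RSK3. Other genes among the 10 have general roles in cells, such as RNA breakdown in lysosomes and pyruvate entry into mitochondria.

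RNA was sequenced from embryos of embryonic day (E) 6.5 that came from matings of tw18/+ mice. The labels give the strain as 129/SvEv, while the study's text allows for backgrounds that differ between embryos, which cannot be told apart from genotype here. There was 1 library each of wild type (WT), of the heterozygote tw18/+ and of the homozygote tw18/tw18, in which both chromosomes carry a deletion that includes *Ppp2r1a*, the gene for a scaffold subunit of the phosphatase PP2A. The 10 genes lie proximal to this deletion and outside it. The labels name the tissue as epiblast, while the study's methods describe the embryo proper, that is epiblast with the surrounding visceral endoderm, and the number of embryos per library is not given in the sources used here. With 1 library per genotype no difference has a replicate check, and no p-value is given. Copy number and base sequence of the 10 genes on the tw18 chromosome and in 129/SvEv were not measured, and the reference genome is that of another strain, C57BL/6J.

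The copies are shown first, because reads from near-identical copies can be shared out differently among them. The sequences are coding stretches of 60 bases from the GENCODE transcripts of GRCm38, 5′ to 3′ on the strand of the gene, with the bases that differ within a pair in capitals. The coding sequences of *Rnaset2a* and *Rnaset2b*, of 777 bases each, were identical (0 differing bases), so that no read inside them could tell the copies apart. The first 60 bases of both begin with the start codon.
*Rnaset2a*, chr17:8147635-8147694, minus strand: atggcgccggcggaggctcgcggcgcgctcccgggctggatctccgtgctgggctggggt
*Rnaset2b*, chr17:6978998-6979057, plus strand: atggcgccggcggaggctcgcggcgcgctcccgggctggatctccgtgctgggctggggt

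*Rsph3a* and *Rsph3b* differed at 13 of 1548 aligned coding bases (99.2% identity), and 81.9% of their aligned windows of 50 bases, the length of 1 read, were identical. The stretch below holds 5 of the differing bases and is thus a place where a read can be given to 1 copy.
*Rsph3a*, chr17:7946017-7946076, plus strand: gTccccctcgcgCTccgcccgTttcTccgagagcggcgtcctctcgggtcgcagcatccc
*Rsph3b*, chr17:6948205-6948264, minus strand: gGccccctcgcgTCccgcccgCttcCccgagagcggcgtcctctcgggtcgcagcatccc

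The coding sequence of *Tmem181a* differed from the transcript of *Tmem181b-ps* at 7 of 1412 aligned bases (99.5% identity) and from that of *Tmem181c-ps* at 9 of 1338 (99.3%). Of the aligned windows of 50 bases, 77.9% and 67.5% were identical, respectively. Each stretch below holds 2 differing bases.
*Tmem181a*, chr17:6280614-6280673, plus strand: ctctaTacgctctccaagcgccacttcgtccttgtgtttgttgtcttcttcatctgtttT
*Tmem181b-ps*, chr17:6466947-6467006, minus strand: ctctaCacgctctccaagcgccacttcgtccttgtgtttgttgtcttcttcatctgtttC
*Tmem181a*, chr17:6290560-6290619, plus strand: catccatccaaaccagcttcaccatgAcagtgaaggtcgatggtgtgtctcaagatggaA
*Tmem181c-ps*, chr17:6628835-6628894, minus strand: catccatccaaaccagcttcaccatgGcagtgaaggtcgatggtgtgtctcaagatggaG

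*Rps6ka2* has no copy among the 10 genes, but its last exon of 3100 bases has a near-copy further along Chr 17, annotated as a lincRNA, with 98.5% identity over 3086 aligned bases. That near-copy is not a row of the table, and its sequence also belongs to transcripts of *Sod2*, which had an FPKM of 17.8 in WT, 21.8 in tw18/+ and 19 in tw18/tw18. The stretch below is the start of this exon, which is coding in *Rps6ka2*, and holds 1 differing base.
*Rps6ka2*, chr17:7300216-7300275, plus strand: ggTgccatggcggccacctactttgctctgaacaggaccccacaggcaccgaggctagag
lincRNA, chr17:13330750-13330809, plus strand: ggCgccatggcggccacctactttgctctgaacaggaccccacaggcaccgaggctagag

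Promoter sequences from RefSeq (GRCm38.p6, 250 bases before to 50 after the start) were matched for 8 of the 10 genes, all but *Tmem181b-ps* and *Tmem181c-ps*. Those of the *Rnaset2* copies are shown because both genes had nearly the same ratios between the libraries. These ratios are not independent, as the copies share reads, and a link between promoter and level was not tested. A run of 205 bases before the RefSeq starts differed at 1 base, in capitals. These starts are placed differently relative to it, so that the run ends 46 bases before the start of *Rnaset2a* and 1 base before that of *Rnaset2b*. In both genes the run lies inside the GENCODE bounds given below. Those begin further out, at 8148097 for *Rnaset2a* and 6970634 for *Rnaset2b*.
*Rnaset2a*, chr17:8147833-8148037, minus strand: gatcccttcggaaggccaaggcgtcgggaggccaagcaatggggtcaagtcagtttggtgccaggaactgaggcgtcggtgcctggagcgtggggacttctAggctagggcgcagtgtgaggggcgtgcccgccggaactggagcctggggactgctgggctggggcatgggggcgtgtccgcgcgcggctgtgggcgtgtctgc
*Rnaset2b*, chr17:6978655-6978859, plus strand: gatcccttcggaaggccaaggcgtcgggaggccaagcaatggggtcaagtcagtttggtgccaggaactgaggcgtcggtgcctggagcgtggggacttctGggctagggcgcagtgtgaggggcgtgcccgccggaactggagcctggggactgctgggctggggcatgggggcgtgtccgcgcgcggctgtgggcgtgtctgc

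Levels are FPKM as deposited, that is fragments scaled by transcript length and by the size of the library. How the libraries were normalized is not given in the sources used here. From the spacing of low values, 1 fragment on a transcript of 1 kb was worth an FPKM of 0.0663 in WT, 0.0473 in tw18/+ and 0.0476 in tw18/tw18, so the WT library was the shallowest. A gene was assessed in a pair of libraries where the higher FPKM of the pair was at least 1. The fragments given for a gene are approximate, and the 95% intervals of the log2 ratios come from them by the exact binomial (Clopper-Pearson) method. They cover counting error only, and not how reads shared among copies were divided. Fragments copied by PCR are also not independent molecules. *Ppp2r1a* followed the order of the labels, with an FPKM of 146 in WT, 81.7 in tw18/+ and 12.8 in tw18/tw18. It was not at 0 in tw18/tw18, although both chromosomes lack the gene there, and the source of these fragments was not tested. All 10 epiblast markers were detected in each library, from *Sox2* at 13.0, 11.3 and 5.10 to *Dnmt3b* at 719, 733 and 359, with *Pou5f1* at 628, 721 and 274, and 5 of 10 were at least 2-fold lower in tw18/tw18 than in WT (3 of 10 with the libraries rescaled to equal FPKM sums). Over all genes assessed in tw18/tw18 against WT, 15.1% were at least 2-fold higher and 6.94% lower. These shares belong beside each count of this pair, here and for the gene lists below. Of 17 markers of decidua and stroma, 14 were at least 2-fold higher in tw18/tw18 than in WT and 2 lower, and their summed FPKM was 1920 in WT, 463 in tw18/+ and 1473 in tw18/tw18, with none at 0. Most of that sum in WT was *Prl8a2* at 1504, 155 and 377, and without it and *Prl3c1*, the markers that were lower, the other 15 summed to 294, 295 and 1071. Of 10 markers of extra-embryonic ectoderm 8 were higher and 1 lower, with sums of 106, 86.6 and 103, and without *Eomes*, a gene also of the primitive streak, the other 9 summed to 28.9, 28.6 and 66.3. Of 8 endothelial markers 6 were higher and 0 lower, with sums of 41.9, 28.5 and 100.1. Of 13 markers of visceral endoderm 0 passed in either direction, with sums of 1160, 1118 and 1555. Their part in the results below was not tested, and in such bulk samples fewer cells of a type and less RNA per cell cannot be told apart.

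The 10 genes did not share 1 pattern over the genotypes. The *Tmem181* copies were higher in tw18/tw18 alone, both *Rnaset2* copies and *Mpc1* were higher in tw18/+ and in tw18/tw18, and *Rsph3a*, *Rsph3b* and *Synj2* went up in steps from WT over tw18/+ to tw18/tw18. *Rps6ka2* went down in steps.

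**Figure D1:**
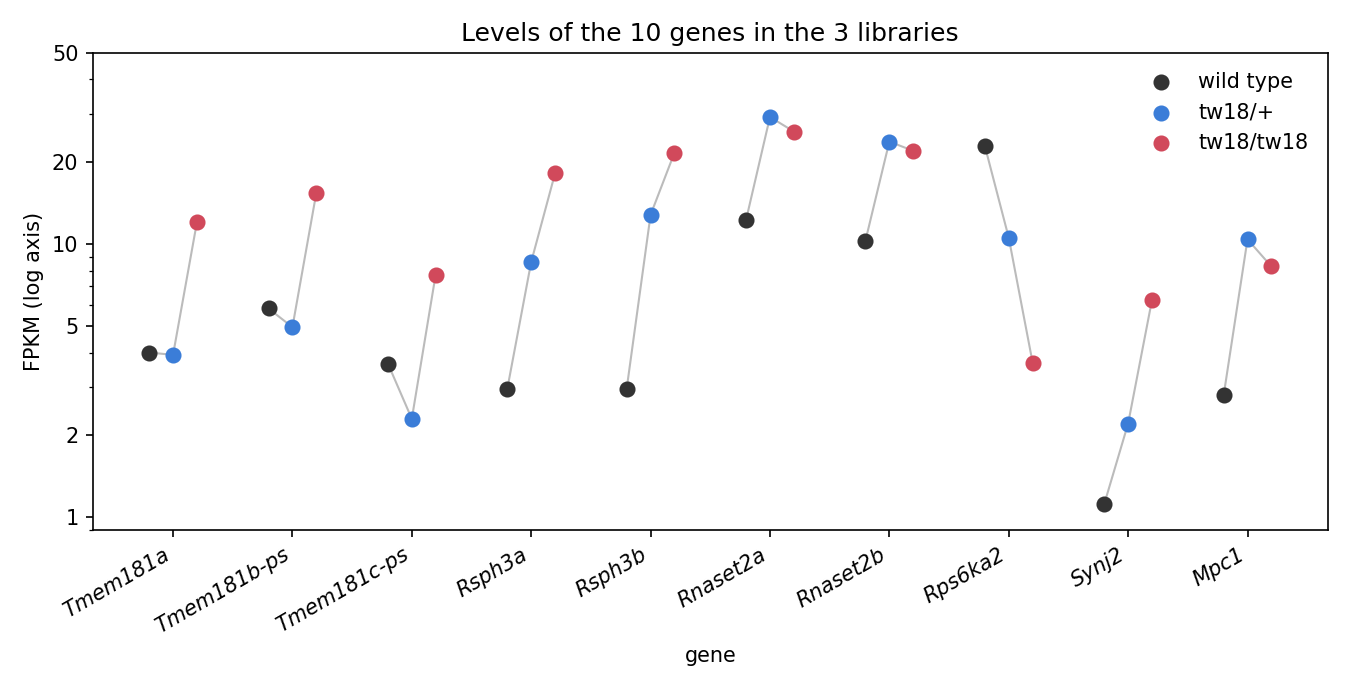
FPKM of each of the 10 genes on a log axis, with 1 point per library (WT, tw18/+ and tw18/tw18, joined by a line within a gene). *Rps6ka2* is the gene with its highest point in WT, 22.8, and its lowest in tw18/tw18, 3.68, while the other 9 genes are lowest in WT or in tw18/+.

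*Tmem181a* (Chr 17 6256860 to 6308314, plus strand) encodes a membrane protein with several membrane-spanning stretches, and *Tmem181b-ps* (6438524 to 6467022, minus strand) and *Tmem181c-ps* (6613753 to 6639790, minus strand) are annotated as unprocessed pseudogenes. *Tmem181a* had an FPKM of 4.01 in WT, 3.93 in tw18/+ and 12.0 in tw18/tw18, from about 263, 362 and 1097 fragments. *Tmem181b-ps* had 5.81, 4.97 and 15.4 in the same order, and *Tmem181c-ps* 3.65, 2.29 and 7.74. For each copy tw18/tw18 stood above both other libraries. Against WT the log2 ratio of tw18/tw18 was 1.58 for *Tmem181a* (95% interval 1.39 to 1.78), 1.40 for *Tmem181b-ps* (1.17 to 1.63) and 1.08 for *Tmem181c-ps* (0.68 to 1.50). Against tw18/+ it was 1.61 (1.44 to 1.78), 1.63 (1.42 to 1.85) and 1.75 (1.33 to 2.19). The tw18/+ library differed from WT by -0.029 for *Tmem181a* (-0.26 to 0.21) and by -0.23 for *Tmem181b-ps* (-0.51 to 0.048), both within counting error. For *Tmem181c-ps*, which rested on about 68 fragments in WT and 60 in tw18/+, it was -0.67 (-1.19 to -0.15). That interval leaves out how reads shared with the other copies were divided.

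The summed FPKM of the *Tmem181* copies, was 13.5 in WT, 11.2 in tw18/+ and 35.1 in tw18/tw18. As the transcripts differ in length (4499, 2426 and 1386 bases), this sum still depends on how shared reads were divided. The sum of the fragments would not if these were the lengths behind the FPKM, which is not known. Reads shared with genes outside the family are not covered by it. The fragments summed to about 531, 660 and 2033. Their log2 ratio at equal depth was 1.46 in tw18/tw18 against WT and -0.17 in tw18/+ against WT, beside 1.38 and -0.27 for the summed FPKM. The share of this sum listed under *Tmem181a* was 29.8%, 35.1% and 34.2%, and that under *Tmem181c-ps* 27.1%, 20.5% and 22.0%. The sum differed more between tw18/tw18 and the other libraries than the shares did. The summed markers of endothelium and of visceral endoderm had the same order over the libraries, lowest in tw18/+ and highest in tw18/tw18. WT and tw18/+ were close in visceral endoderm, at 1160 and 1118. The markers of extra-embryonic ectoderm had this order only without *Eomes*, at 28.9, 28.6 and 66.3, and with it their sum was highest in WT. The sum for decidua and stroma was also highest in WT. Without *Prl8a2* and *Prl3c1* it was 294, 295 and 1071. Of 7 endothelial markers assessed in tw18/+ against WT, 2 were at least 2-fold higher and 2 lower, beside 4.70% and 5.02% of all genes. The part of these cell types in the *Tmem181* levels was not tested. *Tmem181a* also overlaps *Dynlt1a*, which lies on the opposite strand and had an FPKM of 13.0, 12.4 and 13.2.

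*Rsph3a* (7945614 to 7979824, plus strand) and *Rsph3b* (6904413 to 6948682, minus strand) encode a protein of the radial spokes, the struts inside motile cilia and sperm tails. *Rsph3a* had an FPKM of 2.96 in WT, 8.60 in tw18/+ and 18.1 in tw18/tw18, from about 91, 371 and 777 fragments. *Rsph3b* had 2.96, 12.8 and 21.6, from about 93, 566 and 949. Both copies were lowest in WT, where their FPKM was nearly equal, and highest in tw18/tw18. In tw18/tw18 against WT the log2 ratio was 2.62 for *Rsph3a* (2.30 to 2.95) and 2.87 for *Rsph3b* (2.56 to 3.20), the latter a 7.29-fold difference. In tw18/+ against WT it was 1.54 (1.21 to 1.89) and 2.11 (1.80 to 2.45). The step from tw18/+ to tw18/tw18 was smaller, 1.08 (0.90 to 1.26) and 0.76 (0.60 to 0.91). The summed FPKM of the pair was 5.92, 21.4 and 39.7, and *Rsph3b* made up 50.05%, 59.8% and 54.3% of it.

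Most other genes of the radial spokes and axoneme were too low to be assessed beside *Rsph3a* and *Rsph3b*. Of 12 such genes listed from general knowledge 7 are in the table, and of the 2 that could be assessed in tw18/tw18 against WT 0 were at least 2-fold higher and 1 was lower, *Nme5*, at 1.05 in WT and 0 in both carrier libraries. *Rsph1*, another radial spoke protein, had an FPKM of 3.80, 4.15 and 3.36, and *Rsph9* was listed at 0 in each library. Of a list of 8 markers of multiciliated cells and testis 6 are in the table and 2 could be assessed. The one that passed was *Foxj1*, a regulator of motile cilia, at 2.64, 3.54 and 6.13.

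*Rnaset2a* (8115445 to 8148097, minus strand) and *Rnaset2b* (6970634 to 7011299, plus strand) encode the acid ribonuclease RNase T2 of lysosomes. *Rnaset2a* had an FPKM of 12.3 in WT, 29.2 in tw18/+ and 25.8 in tw18/tw18, from about 427, 1422 and 1250 fragments. *Rnaset2b* had 10.3, 23.7 and 21.9, from about 357, 1152 and 1059. Both copies were at more than 2-fold the WT level in either carrier library, and the carrier libraries were close to each other. In tw18/+ against WT the log2 ratio was 1.25 for *Rnaset2a* (1.09 to 1.41) and 1.20 for *Rnaset2b* (1.03 to 1.38). In tw18/tw18 against WT it was 1.07 (0.91 to 1.23) and 1.09 (0.92 to 1.27). Between tw18/tw18 and tw18/+ it was -0.18 (-0.29 to -0.066) and -0.11 (-0.23 to 0.009), a direction that turned to 0.071 and 0.14 when the libraries were rescaled to equal FPKM sums.

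That rescaling moves each log2 ratio of tw18/tw18 by 0.21 against WT and by 0.25 against tw18/+, and that of tw18/+ against WT by -0.035. The FPKM sums were 444064 in WT, 455078 in tw18/+ and 383409 in tw18/tw18, and a single gene, *Lars2*, was listed at 11199, 9689 and 0. The ratio of *Rnaset2b* to *Rnaset2a* was 0.839 in WT, 0.813 in tw18/+ and 0.850 in tw18/tw18 (no fragment inside the identical coding sequences can be given to 1 of the copies). The summed FPKM was 22.6, 52.9 and 47.7. Of 8 lysosomal nucleases and related enzymes, 7 could be assessed in tw18/tw18 against WT and 3 were higher, *Dnase2a*, *Pld4* and *Smpdl3a*, each with an FPKM of 3.01 or less in every library (5 with equal FPKM sums). Over all genes assessed, 15.1% were higher in this pair. *Pld3*, an exonuclease of the same compartment, had 11.4, 12.6 and 21.5.

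**Figure D2:**
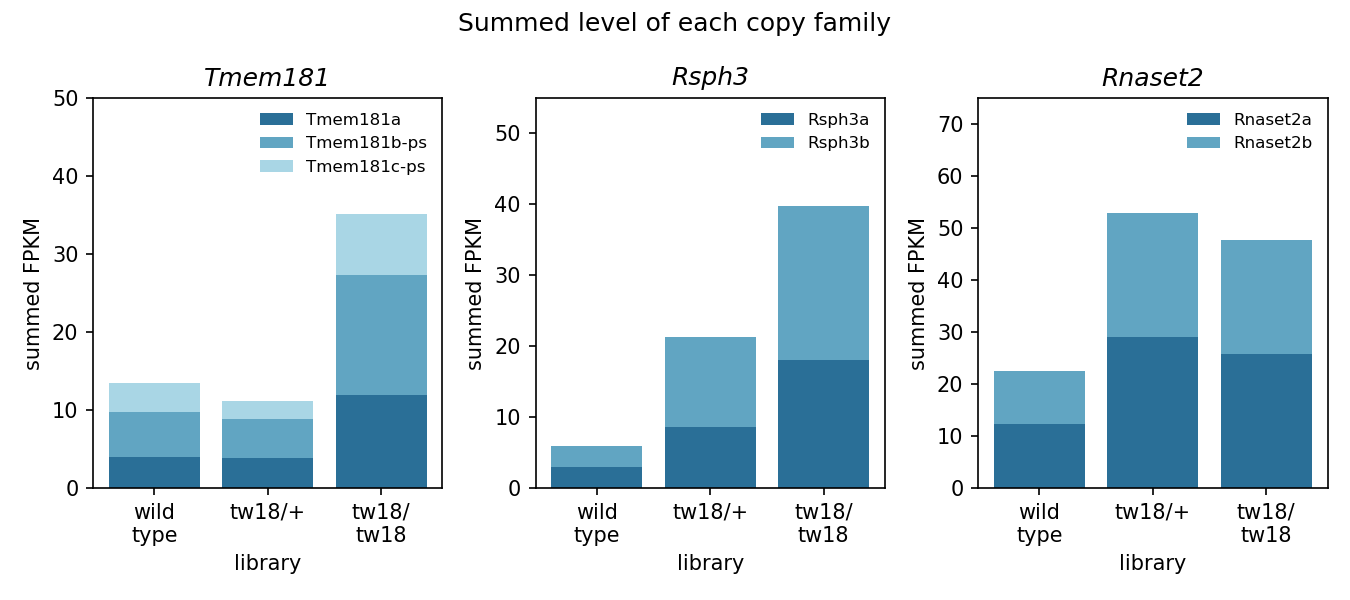
Summed FPKM of the copies of *Tmem181*, *Rsph3* and *Rnaset2* in each library, with 1 shade per copy in a stacked bar that starts at 0. The *Tmem181* bar is tall in tw18/tw18 alone (35.1), the *Rsph3* bars climb from 5.92 over 21.4 to 39.7, and the *Rnaset2* bars of tw18/+ and tw18/tw18 (52.9 and 47.7) both stand above WT (22.6).

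*Rps6ka2* (7170115 to 7303315, plus strand) encodes RSK3, a kinase that is switched on by ERK signalling and lies between the blocks that hold *Rsph3b* with *Rnaset2b* and *Rsph3a* with *Rnaset2a*. Its FPKM was 22.8 in WT, 10.6 in tw18/+ and 3.68 in tw18/tw18, from about 1811, 1172 and 407 fragments. It was the only one of the 10 genes that was lower in tw18/tw18 than in WT, and tw18/+ lay between them. The log2 ratio was -1.11 in tw18/+ against WT (-1.22 to -1.01), -2.63 in tw18/tw18 against WT (-2.79 to -2.48) and -1.52 in tw18/tw18 against tw18/+ (-1.68 to -1.35). WT was thus 2.17-fold above tw18/+ and 6.20-fold above tw18/tw18. For comparison, 25 genes within the tw18 deletion reached an FPKM of 1 in WT and were detected in every library. They had a median of 0.573 of the WT level in tw18/+ and of 0.0993 in tw18/tw18. Deleted genes that were not detected in some library were left out, which can raise these medians. *Rps6ka2* lies outside the deletion. In the principal transcript of *Rps6ka2* 34.5% of the words of 50 bases occur in another gene, whereas in its coding sequence 3.30% do.

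Most other ribosomal S6 kinases were not lower with *Rps6ka2*. Of 9 listed, all assessed, 3 were at least 2-fold higher in tw18/tw18 than in WT and 1, *Rps6kl1*, was lower (15.1% and 6.94% of all genes). In tw18/+ against WT 0 passed, beside 9.72% of all genes. *Rps6ka3*, which encodes the sister kinase RSK2, had an FPKM of 6.65 in WT, 11.5 in tw18/+ and 22.1 in tw18/tw18, the opposite order to *Rps6ka2*. *Rps6ka1*, which encodes RSK1, had 48.3, 43.5 and 46.3. Lowest in tw18/tw18 were *Rps6ka6* at 35.1, 38.0 and 23.2, within 2-fold, and *Rps6kl1* at 4.89, 4.24 and 1.61.

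*Synj2* (5941280 to 6044290, plus strand) encodes synaptojanin 2, a phosphatase of membrane phosphoinositides. Its FPKM was 1.12 in WT, 2.20 in tw18/+ and 6.25 in tw18/tw18, from about 93, 257 and 724 fragments. It was the lowest of the 10 genes in FPKM in WT, and each step up was larger than counting error. The log2 ratio was 0.98 in tw18/+ against WT (0.63 to 1.34), just under the 2-fold threshold, 2.48 in tw18/tw18 against WT (2.17 to 2.81) and 1.50 in tw18/tw18 against tw18/+ (1.30 to 1.71). It shares almost no sequence with other genes, 0.072% of the words of its principal transcript, but its end overlaps *Serac1* on the opposite strand, which had an FPKM of 2.87, 2.79 and 3.18. Of 9 assessed inositol polyphosphate 5-phosphatases, 1 was at least 2-fold higher in tw18/tw18 than in WT, *Inpp5d*, the SHIP1 gene of blood cells, at 0.335, 1.06 and 5.07. Over all genes assessed, 15.1% were higher in this pair. *Synj1*, the paralog of *Synj2*, had 6.20, 5.29 and 7.54.

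*Mpc1* (8282904 to 8297661, plus strand) encodes 1 of the subunits of the mitochondrial pyruvate carrier. Its FPKM was 2.79 in WT, 10.4 in tw18/+ and 8.28 in tw18/tw18, from about 34, 178 and 141 fragments, the fewest of the 10 genes in WT. As for *Rnaset2a* and *Rnaset2b*, both carrier libraries stood well above WT. The log2 ratio was 1.90 in tw18/+ against WT (1.37 to 2.48), 1.57 in tw18/tw18 against WT (1.03 to 2.16) and -0.33 in tw18/tw18 against tw18/+, which became -0.083 with equal FPKM sums. *Mpc2*, the partner subunit of the carrier, had an FPKM of 9.84, 6.07 and 7.51, so that *Mpc1* was below its partner in WT and above it in both carrier libraries. Of 14 assessed genes of pyruvate use, 1 was higher in tw18/tw18 than in WT, *Pcx* (pyruvate carboxylase) at 2.55, 6.08 and 10.9, and 1 was lower, *Ldhb* (a lactate dehydrogenase subunit) at 95.4, 86.1 and 46.5, which no longer passed with equal FPKM sums. Over all genes assessed, 15.1% were higher in this pair and 6.94% lower. In the coding sequence of *Mpc1* 46.2% of the words of 50 bases occur in another gene, namely a transcript that overlaps it on the opposite strand or a processed copy, and the use of strand in the counting is not given in the sources used here.

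**Figure D3:**
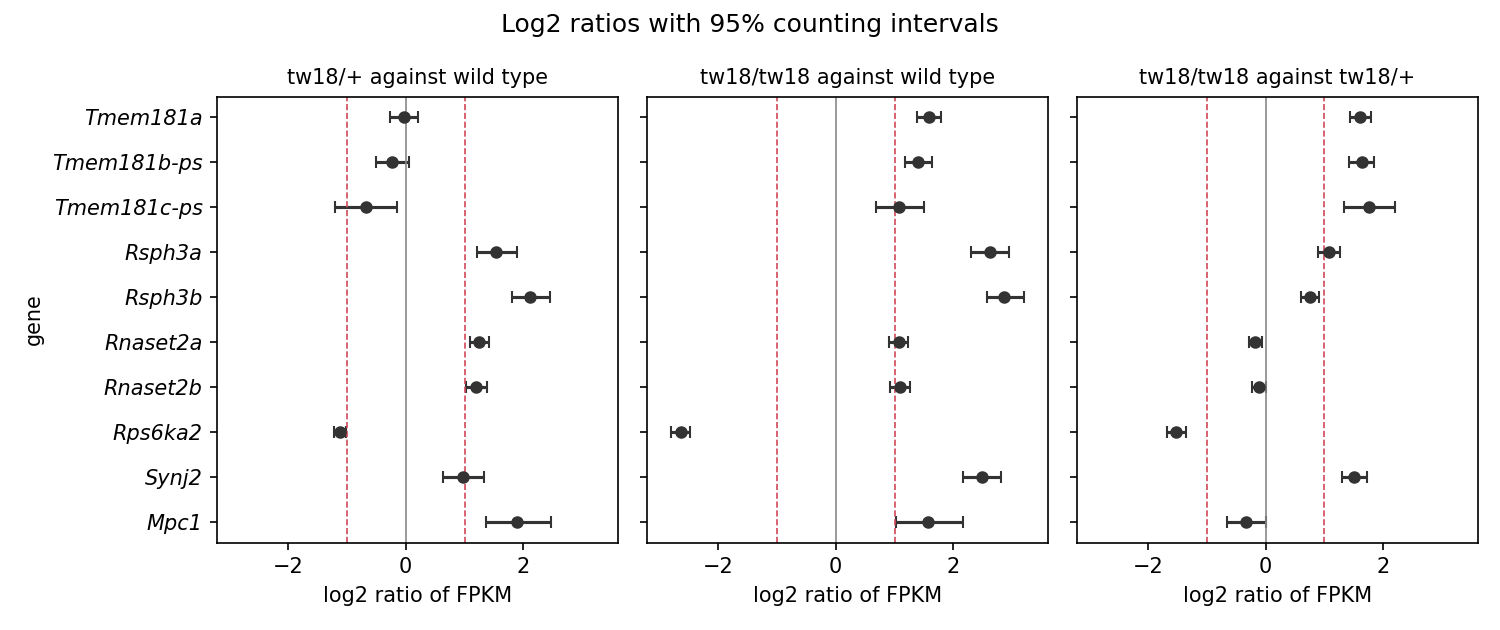
Log2 ratio of FPKM for each of the 10 genes in the 3 pairs of libraries, with bars for the 95% counting interval and dashed lines at 2-fold. *Rps6ka2* lies to the left of the line in each pair (-1.11, -2.63 and -1.52), whereas the *Tmem181* copies cross the upper line only in the pairs with tw18/tw18.

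Over all genes assessed, 22.0% differed by at least 2-fold between tw18/tw18 and WT, 15.1% being higher and 6.94% lower. With equal FPKM sums the calls of this pair went from 1946 higher and 896 lower to 2493 and 631, and those of tw18/tw18 against tw18/+ from 1910 and 726 to 2539 and 472. The 10 genes were chosen on this pair and all 10 passed it, 9 higher and 1 lower, so nothing is read from that count. Their median log2 ratio was 1.49, beside -0.016 over all genes assessed and not at 0. In tw18/+ against WT, which shares the WT library with the pair used for the choice, 6 of the 10 passed, beside 9.72% of all genes. Of these 5 were higher (*Rsph3a*, *Rsph3b*, *Rnaset2a*, *Rnaset2b* and *Mpc1*; background 4.70%) and 1 was lower (*Rps6ka2*; background 5.02%). The median of the 10 was 1.09, beside 0.0021 over all genes. In tw18/tw18 against tw18/+, which shares the tw18/tw18 library with that pair, 6 of the 10 passed, beside 20.5% of all genes. Of these 5 were higher (the 3 *Tmem181* copies, *Rsph3a* and *Synj2*; background 14.9%) and 1 was lower (*Rps6ka2*; background 5.65%), and with equal FPKM sums *Rsph3b* passed as well, at 1.002. The median of the 10 was 0.92, beside 0.0033 over all genes. Among 12281 genes ranked by their ratio in tw18/+ against WT, *Rsph3b* was at place 104 from the top, *Mpc1* at 137 and *Rsph3a* at 234, and *Rps6ka2* at place 477 from the bottom. Each pair shares a library with the choice of the genes, and copies share reads. The counts, medians and places are therefore a description only.

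The other genes of the interval from 3.5 to 8.3 Mb are what was left after genes with large differences between tw18/tw18 and WT were picked, so their share past 2-fold in that pair is low by the choice and nothing is read from it. Of 18 assessed neighbours 2 (11.1%) passed in tw18/tw18 against WT, namely *Cldn20*, with an FPKM of 1.43 in WT and listed at 0 in both carrier libraries, and the lincRNA *1700102H20Rik* at 0.180, 0 and 2.34. With equal FPKM sums 5 of 18 (27.8%) passed, *Tulp4*, *Dynlt1c* and the lincRNA *4930470H14Rik* being at 1.04, 1.03 and 1.01. In tw18/+ against WT 2 of 17 (11.8%) passed, *Snx9*, a sorting nexin gene, at 29.0, 14.4 and 25.2, and *Cldn20*. In tw18/tw18 against tw18/+ 4 of 17 (23.5%) passed, *Tfb1m*, *1700102H20Rik*, *Dynlt1f* and *Tagap*. The shares in these last pairs were near those of all genes. Over all assessed genes of the interval, the 10 included, the shares were 42.9%, 29.6% and 37.0%. Of a list of 26 other genes of the region, some of them duplicated, 17 could be assessed in tw18/tw18 against WT, and 0 were higher and 1 lower (3 and 1 with equal FPKM sums).

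The duplicated blocks hold further genes beside the 10. *Tagap1*, a GTPase-activating protein gene known as a distorter of the *t* haplotype, lies between *Rsph3b* and *Rnaset2b* and had an FPKM of 18.7, 10.3 and 20.0. Its copy *Tagap*, beside *Rsph3a*, had 17.9, 9.09 and 24.5, so both were lowest in tw18/+, where the flanking *Rsph3* and *Rnaset2* copies were higher than in WT. As the pair shares sequence (63.7% of the words of 50 bases of *Tagap1* occur in *Tagap*), their levels are not independent. The *Dynlt1* copies, which encode the dynein light chain Tctex1 and lie beside the *Tmem181* copies, had an FPKM of 13.0, 12.4 and 13.2 (*Dynlt1a*), 86.3, 87.0 and 85.3 (*Dynlt1b*), 56.6, 91.0 and 99.7 (*Dynlt1c*) and 8.21, 4.26 and 8.62 (*Dynlt1f*). None of them was at least 2-fold higher in tw18/tw18 than in WT, except *Dynlt1c* with equal FPKM sums.

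**Figure D4:**
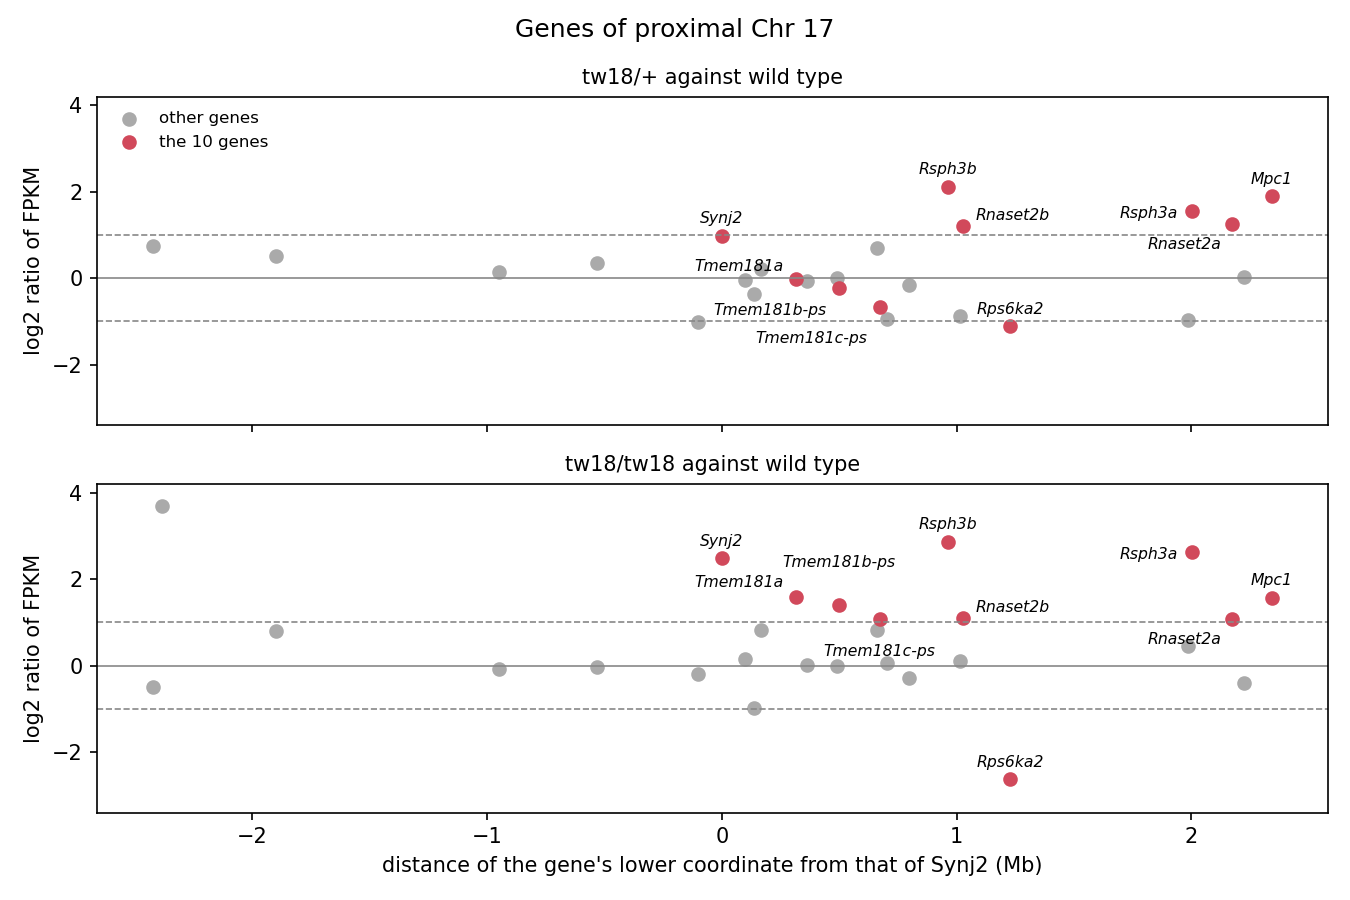
Log2 ratio of FPKM against WT for genes of the interval that reached an FPKM of 1 in any library and were above 0 in both libraries of the pair, by the distance in Mb of the gene's lower coordinate from that of *Synj2*, for tw18/+ (upper panel) and tw18/tw18 (lower panel). Red points are the 10 genes, grey points their neighbours and dashed lines mark 2-fold: in the upper panel *Rsph3b*, *Rsph3a*, *Rnaset2a*, *Rnaset2b* and *Mpc1* are the points above the line, and in the lower panel *1700102H20Rik* at 3.70 is the grey point above it.

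The genes closest in pattern to each of the 10 were found by the distance over both log2 ratios against WT, among 11068 others that reached an FPKM of 1 in all 3 libraries. *Rnaset2b* was the second closest of these to *Rnaset2a* (distance 0.049), after *Tmem18* and before *Slc25a28*, and the same genes with *Rnaset2a* were closest to *Rnaset2b*. Copies share reads, and the *Rnaset2* copies have identical coding sequences, so the distances between copies depend on how reads were divided. Nothing is read from the likeness of the *Rnaset2* copies. The *Rsph3* copies were further apart, *Rsph3b* being at rank 18 for *Rsph3a* (distance 0.62), whose closest genes were *Cox6b2*, *Dio3os* and *Rpl10l*. For *Rsph3b* the closest were *Dppa2*, *Speer8-ps1* and *Dio3os*. The *Tmem181* copies were further from each other in rank, *Tmem181b-ps* being at rank 80 for *Tmem181a* (distance 0.27) and *Tmem181c-ps* at rank 962 (distance 0.81). By distance, *Tmem181a* and *Tmem181b-ps* were nearer to each other than the *Rsph3* copies were. The closest to *Tmem181a* were *Psd3*, *Slc6a12* and *Penk*, to *Tmem181b-ps* *Slco4a1*, *Rhob* and *Crem*, and to *Tmem181c-ps* *Itgb3*, *Ang* and *Cox7a1*. *Phlda3*, *Gata3* and *Lims2* were closest to *Synj2*, and *Lgals2*, *Gjb5* and *Car11* to *Mpc1*. Few genes were near *Rps6ka2*: the closest were *Mageh1* at a distance of 0.25, *Zfp944* at 0.29 and *Gm11627* at 0.37. *Mageh1*, the closest, lies on Chr X and had an FPKM of 10.05 in WT, 5.45 in tw18/+ and 1.53 in tw18/tw18. *Zfp944*, a zinc finger gene, lies at Chr 17 22337989 to 22361400, within the tw18 deletion, and had an FPKM of 6.42, 3.17 and 1.26.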

How the data were processed

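The TotalScript kit was used on total RNA, and both ends of each fragment were read for 50 bp. The authors used mm10 (GRCm38) for mapping and deposited 1 table of FPKM values per gene symbol. The submitters' processing notes name TopHat2, Bowtie 1.0.0, Cuffdiff and Cufflinks 2.2.1. The annotation given to Cuffdiff, its library normalization, its setting for reads with several matches and its use of strand are not given in the sources used here.

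Everything else was computed from the deposited FPKM with Python 3.11.15, numpy 2.4.6, pandas 2.3.3, scipy 1.17.1, Biopython 1.88 and matplotlib 3.10.9. A gene was assessed in a pair where the higher FPKM was at least 1, and passed at a log2 ratio of at least 1 without a pseudocount, a gene at 0 included. The calls and the depth estimate were tested on simulated data. Depth came from the spacing of 94 low values in WT, 199 in tw18/+ and 154 in tw18/tw18, of which 85.1% to 86.4% came within 0.2 of whole fragments (150 bp of each transcript were taken off for the length of a fragment). Positions were found for 23302 genes, 21847 of them in GENCODE (GRCm38). Shared sequence was the percent of 50 bp words of the transcripts that occur in another gene.

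The 10 genes, the gene lists and the marker lists were chosen with earlier results of these data known. Beyond the 10, genes were named that pass in the interval, that lie nearest in pattern or that belong to the listed families. The neighbours *Gtf2h5*, *Tulp4*, *Snx9*, *Tfb1m*, *Tagap*, *Tagap1*, *Serac1* and the *Dynlt1* copies, and *Lars2*, *Sod2* and family members within 2-fold, were named after their values were seen, and the marker sums without *Prl8a2*, *Prl3c1* and *Eomes* were added after seeing the data. Alternatives were other pseudocounts, filters, thresholds, scalings and interval bounds.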

Additional observations from a re-analysis of the deposited data

How the results depend on the processing

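With 1 library per genotype no replicate could be left out. No paired analysis was possible because each genotype has a single library. At a log2 threshold of 2, 4 of the 10 genes passed in tw18/tw18 against WT, 1 in tw18/+ against WT and 0 in tw18/tw18 against tw18/+, and the share of the interval's genes became 21.4%, 7.41% and 3.70%, as fewer genes reach a higher threshold. Without the 10 genes that share was 11.1% in tw18/tw18 against WT and 11.8% in tw18/+ against WT. The summed *Tmem181* log2 ratio of tw18/tw18 against WT became 1.32 with a pseudocount of 1, and that of *Rnaset2* became 1.29 with equal FPKM sums. Without a filter on low values the share of the interval's genes was 54.3% in tw18/tw18 against WT and 45.7% in tw18/+ against WT, and with equal FPKM sums 53.6% and 33.3%. In tw18/tw18 against tw18/+ it was 23.5% without the 10 genes and 48.1% with equal FPKM sums. Of the log2 ratios of single genes against WT under the alternatives, 69 stayed within their counting interval, 11 moved beyond it and none turned its direction. The one that moved to the other side of the 2-fold threshold was *Tmem181c-ps* in tw18/tw18 against WT, at 0.91 with a pseudocount of 1. Depth limits *Mpc1* and *Tmem181c-ps* most, with about 34 and 68 fragments in WT.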

Other observations

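Outside the interval of the 10 genes, the stretch of Chr 17 from 8.3 to 19 Mb, which also lies proximal to the deletion, had 14 of 40 assessed genes (35.0%) at least 2-fold different in tw18/tw18 against WT, 5 higher and 9 lower, beside 22.0% of all genes with a position. In tw18/+ against WT it had 3 of 36 (8.33%), all lower, beside 9.69%. Distal to the deletion, from 24 to 40 Mb, the shares were 25.0% of 300 genes and 16.9% of 295. The lincRNA *4930470H14Rik*, at the start of the interval, had an FPKM of 107 in WT, 152 in tw18/+ and 186 in tw18/tw18. These genes were looked at after their values were seen.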
